A study of Mus musculus with 12 samples.

Results

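The Bcl2 family is described here by the RNA levels of 10 mouse genes in neutrophils: the survival genes Mcl1, Bcl2, Bcl2l1 and Bcl2a1b, the effector genes Bax and Bak1, the BH3-only genes Bcl2l11, Bid and Bbc3, and the less studied Bcl2l15. They were chosen by gene symbol from a table of 28987 genes, and all 10 were found. A filter on low values, which asked for 1 TPM (a gene's share of all transcripts in a library, scaled to a fixed total) or more in 3 libraries or more, kept 13456 genes of the table and 9 of the 10, all but Bbc3. The study profiled neutrophils of FVB mice by RNA sequencing in 12 libraries, 3 in each of 4 groups. WT mice and mice with the MRP8-Bcl2 transgene were sampled at 2 sites, the bone marrow (BM) and the inflamed peritoneum (PT), and each group is named by site and genotype (BM WT, BM Bcl2, PT WT, PT Bcl2). All mice, including the sources of the BM samples, had received 2 mL of thioglycollate into the peritoneum, which draws neutrophils there. Per the labels, cells were taken 6 h later, whereas the methods name an earlier and a later time instead, and the age of the mice was not given. The labels name the source cells macrophages, while the design text and the methods name neutrophils. In the transgenic mice, human Bcl-2 is expressed from human MRP8 (S100A8) regulatory regions, which are active in myeloid cells. The table lists mouse genes, so RNA of the transgene is seen only as far as mouse Bcl2 received its reads.

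The family sets the mitochondrial route of apoptosis. Bax and Bak open the outer mitochondrial membrane, survival proteins such as Mcl-1, Bcl-2, Bcl-xL and A1 hold them back, and BH3-only proteins such as Bim, Bid and Puma bind the survival proteins or activate the effectors. Neutrophils are short-lived cells that depend strongly on Mcl-1, a protein with rapid turnover, and forced expression of Bcl-2 keeps them from dying by this route.

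Library 9, which carries the label PT Bcl2, did not have the Bcl2 RNA of the other transgenic libraries: it was at 0.695 TPM, within the 0.219 to 2.37 TPM of the 6 WT libraries, while the other 5 were at 58.6 to 333 TPM. It was kept in its labelled group, and calls that rest on it are also given without it. Values are given by library, numbered as in the deposited columns, with WT libraries in the order 4, 5, 6 for BM and 10, 11, 12 for PT, and MRP8-Bcl2 libraries in the order 1, 2, 3 for BM and 7, 8, 9 for PT. The 10 neutrophil markers, of which S100a8 and S100a9 were the most abundant, had a summed level of 211428 to 361891 TPM in the BM and 14522 to 53921 TPM in the PT of WT mice, and of 82218 to 240192 TPM and 18830 to 67822 TPM in MRP8-Bcl2 mice, so the sum was lower in PT in both genotypes. Not every marker followed it: Csf3r, the G-CSF receptor gene, was at 183 to 1038 TPM in BM and 1839 to 2478 TPM in PT of WT mice, and at 132 to 816 TPM and 1974 to 4569 TPM in MRP8-Bcl2 mice, while the BM and PT ranges of Cxcr2, Mmp9 and Retnlg overlapped in both genotypes. Ly6g was at 588 to 1266 TPM in BM and 0 to 14.9 TPM in PT of WT mice. In MRP8-Bcl2 its ranges overlapped, at 51.5 to 1225 TPM (BM) and 58.9 to 126 TPM (PT). Among the BM libraries, Retnlg was at 343 to 953 TPM in libraries 2, 3 and 4 and at 9407 to 20198 TPM in libraries 1, 5 and 6. The part of this split in the results was not tested. Sums of markers of other cells also differed between the sites, some with overlapping ranges. The 7 B cell markers summed to 90.0 to 299 TPM (BM) and 656 to 1512 TPM (PT) in WT, and to 38.8 to 262 TPM (BM) and 253 to 857 TPM (PT) in MRP8-Bcl2. Ighm was the most abundant of them in every library, and the sums overlapped in MRP8-Bcl2. The 9 macrophage markers in the table summed to 103 to 223 TPM (BM) and 221 to 397 TPM (PT) in WT, and to 47.1 to 216 TPM (BM) and 161 to 710 TPM (PT) in MRP8-Bcl2, where C1qa was at 0 in PT. These sums overlapped in both genotypes, and Cd68 was the most abundant macrophage marker in every library. Gene by gene, the BM and PT ranges overlapped in both genotypes for all of them except Csf1r in WT. Mast cell markers (5 genes) reached 636 TPM in library 12 (PT WT) and were at most 57.8 TPM in the other 11 libraries. Erythroid markers (4 genes in the table) were at 33.3 to 690 TPM in BM and at most 8.18 TPM in PT. T cell markers (6 genes) summed to 40.2 to 85.5 TPM (BM) and 52.8 to 121 TPM (PT) in WT. In MRP8-Bcl2 they summed to 33.4 to 50.1 TPM (BM) and 22.6 to 215 TPM (PT), with the receptor gene Trac at 0 throughout. Eosinophil markers (4 genes in the table) summed to at most 29.2 TPM in any library, with Epx at 0 throughout. The part of these cells in the results below was not tested. In such bulk libraries, fewer cells of a type and less RNA per cell cannot be told apart. A single read on a 1000 nt transcript came to about 0.346 to 1.62 TPM. The 100 genes of highest mean TPM over all libraries held 46.0 to 76.8% of a library's TPM.

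PT against BM neutrophils asks which genes change as the cells enter the inflamed site, and the same question was put in each genotype. Mcl1, Bcl2a1b, Bcl2l11 and Bcl2l15 rose in PT in WT and in MRP8-Bcl2 mice. No member was called lower in WT, whereas Bcl2 and Bak1 fell in MRP8-Bcl2. To be called, a gene needed a change of 2-fold or more and an adjusted p under 0.05 (limma, with the Benjamini-Hochberg adjustment over all 13456 genes). In WT 4 of the 9 tested members were called higher, against 1.59% of all genes, and 0 lower, against 1.22%. In MRP8-Bcl2 4 were called higher, against 2.31%, and 2 lower, against 19.1%, so that a fall in that comparison was common among all genes. The same 4 members were called higher in both genotypes, which held for 0.855% of all genes. Over the mean of both genotypes, a comparison that shares all its libraries with the other 2, these 4 were again the members called higher (5.13% of all genes were), and 0 were called lower (14.1% of all genes).

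**Figure D1:**
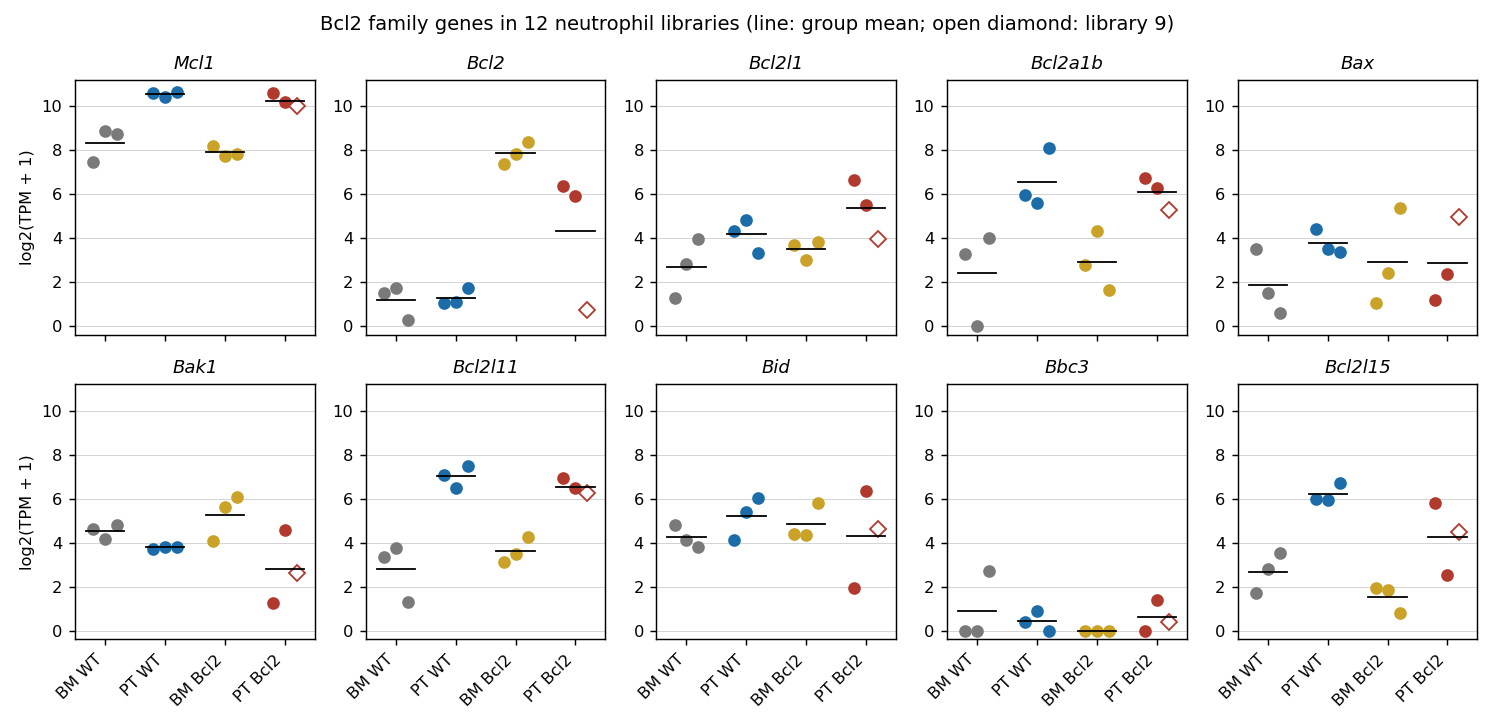
RNA level of the 10 genes as log2(TPM + 1) on the vertical axis, with each point 1 library and the line the mean of the 3 libraries of a group. All PT points of Mcl1, Bcl2a1b, Bcl2l11 and Bcl2l15 lie above the BM points of the same genotype, and the open diamond, library 9, lies at the WT level for Bcl2.

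The median log2 fold change of the 9 members was 1.90 in WT, beside 0.22 over all tested genes, and 1.85 in MRP8-Bcl2, beside -1.02 over all tested genes. The general shift moved with the scaling: when libraries were centred on their medians, the median of all genes in MRP8-Bcl2 became 0.57. The split of all calls moved with it, from 311 up and 2567 down to 1636 and 467 (centring) or 678 and 779 (quantile normalization). In WT it was 214 up and 164 down, and 112 and 197 or 233 and 264 under these scalings. Fold changes are given on the deposited log2(TPM + 1) scale, where changes of genes with low TPM come out too small.

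**Figure D2:**
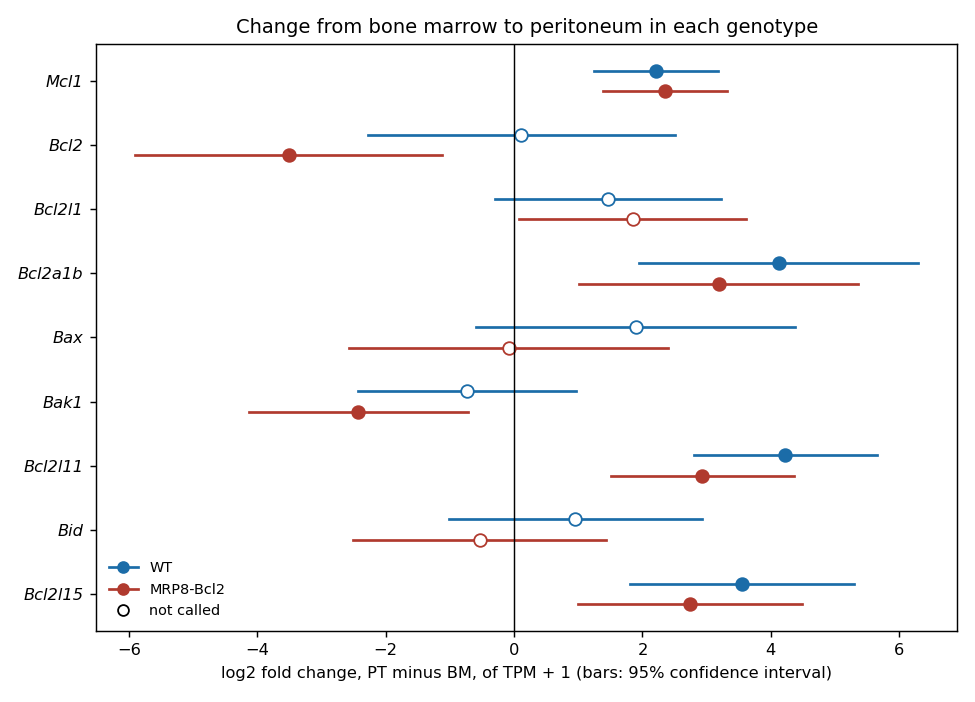
Log2 fold change of TPM + 1, PT minus BM, for the 9 tested members in WT (blue) and MRP8-Bcl2 (red), with 95% confidence intervals from the limma fit. Filled points are called: 4 members lie to the right of 0 in both genotypes, and Bcl2 and Bak1 lie to the left in MRP8-Bcl2.

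Among the survival genes, Mcl1 (ENSMUSG00000038612, chromosome 3, 95658788-95663176, plus strand, GRCm38) was the most abundant member in 10 of the 12 libraries, with Bcl2 above it in libraries 2 and 3. Mcl1 had 173, 468 and 419 TPM in the BM and 1564, 1347 and 1601 TPM in the PT of WT mice. In MRP8-Bcl2 it was at 288, 211 and 224 TPM in BM and at 1535, 1151 and 1028 TPM in PT. Every PT library was above every BM library, in both genotypes. In WT the mean went from 353 ± 158 TPM (SD, n = 3) to 1504 ± 137, a log2 fold change of 2.21 (SE 0.45, adjusted p = 0.0179). MRP8-Bcl2 neutrophils went from 241 ± 41.4 to 1238 ± 264 TPM, a log2 fold change of 2.35 (SE 0.45, adjusted p = 0.00414). Without library 9 the latter was 2.47 (adjusted p = 0.00888). The WT call was lost without library 4 (adjusted p = 0.0708), library 10 (0.0819) or library 11 (0.0549), and under median centring (1.99, adjusted p = 0.109), whereas the MRP8-Bcl2 call was kept in all 12 fits without 1 library. Of 8 other settings, the WT call was kept in 5 and the MRP8-Bcl2 call in all.

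Mouse Bcl2 (ENSMUSG00000057329, chromosome 1, 106538178-106714274, minus strand) is the family's founding survival gene, and its values carry what was assigned to it from the human transgene. In WT, BM libraries held 1.87, 2.37 and 0.219 TPM and PT libraries 1.06, 1.15 and 2.37 TPM. BM Bcl2 held 166, 224 and 333 TPM in libraries 1, 2 and 3, and PT Bcl2 held 82.8, 58.6 and 0.695 TPM in libraries 7, 8 and 9. The 3 libraries of BM Bcl2 were all above those of PT Bcl2, and the WT groups overlapped. The value fell from BM to PT in MRP8-Bcl2, by 3.51 on the log2 scale (SE 1.12, adjusted p = 0.0384). Without library 9 it fell by 1.72, which was not called. That smaller value is a description, because the library was singled out by Bcl2 itself. The call was also lost without library 1, 2 or 3 (adjusted p 0.0532 to 0.122) and under median centring (-1.92, adjusted p = 0.265). It was kept in 2 of 8 other settings, and in none of the 3 other scalings. In WT the log2 fold change was 0.11 (95% interval -2.28 to 2.51). S100a8, the mouse counterpart of the gene whose regulatory regions drive the transgene, was at 85356, 86786 and 38874 TPM in BM Bcl2 and at 25493, 13763 and 5951 TPM in PT Bcl2, also lower in every PT library, and its part in the fall was not tested.

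Bcl2l1 (ENSMUSG00000007659, chromosome 2, 152780668-152831728, minus strand) encodes Bcl-xL. Its values in WT were 1.46, 6.11 and 14.8 TPM (BM) and 19.2, 27.7 and 9.08 TPM (PT), so that the groups overlapped. The levels in MRP8-Bcl2 were 11.99, 7.10 and 13.4 TPM in BM and 100.2, 44.2 and 14.4 TPM in PT, where each PT library was above each BM library. Neither difference passed the test on the deposited scale, with log2 fold changes of 1.47 in WT (95% interval -0.30 to 3.23, adjusted p = 0.397) and 1.85 in MRP8-Bcl2 (0.08 to 3.61, adjusted p = 0.119). Library 9 was the lowest of PT Bcl2. Without it the MRP8-Bcl2 value was 2.56 (adjusted p = 0.0516), and over the mean of both genotypes Bcl2l1 went from 1.66 (adjusted p = 0.0599) to 2.01 (adjusted p = 0.0272), which is a call. That mean was also called without library 6 or library 12, under median centring (2.34, adjusted p = 0.0300) and after quantile normalization (2.11, adjusted p = 0.0281). Median centring also gave a call in MRP8-Bcl2, at 3.44 (adjusted p = 0.0320).

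Bcl2a1b (ENSMUSG00000089929, chromosome 9, 89199209-89207827, plus strand) encodes an A1 protein, a survival factor of blood cells that NF-kB can induce. In WT, BM libraries held 8.85, 0 and 15.2 TPM and PT libraries 61.0, 47.9 and 277 TPM. BM Bcl2 held 5.92, 18.8 and 2.09 TPM, and PT Bcl2 held 104, 77.6 and 37.4 TPM. All 6 PT libraries were above all 6 BM libraries, as for 2.58% of all genes. On its single annotated transcript of 817 nt these values correspond to about 0 to 26.1 reads in the BM libraries and 41.8 to 476 in the PT libraries. WT neutrophils had a log2 fold change of 4.12 (SE 1.02, adjusted p = 0.0429), and those of MRP8-Bcl2 mice had 3.19 (SE 1.02, adjusted p = 0.0385). In WT the call was kept in 4 of the 12 fits without 1 library and in 3 of 9 other settings. It ended without library 12, where mast cell markers were highest (3.34, adjusted p = 0.164), without library 5, where Bcl2a1b was at 0 (2.90, adjusted p = 0.129), and without library 9, which it reaches through the shared spread and filter (adjusted p = 0.0504), as well as without libraries 1, 4, 8, 10 and 11 (0.0518 to 0.0951). In MRP8-Bcl2 it was kept in 6 of 9 other settings, lost without library 1, 3, 7 or 8 (0.0690 to 0.151) and kept without library 9 (3.60, adjusted p = 0.0442). Over the mean of both genotypes the log2 fold change of 3.65 (SE 0.72, adjusted p = 0.00332) was called in every one of the 12.

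The level of Bcl2a1b is uncertain among its near-identical copies. Of its transcript's 31-base words, 88.8% also occur in other genes: 72.4% in Bcl2a1d, 56.7% in Bcl2a1a, 47.3% in the gene Gm29094 and 10.04% in Bcl2a1c. Bcl2a1c was listed at 0 in all 12 libraries, and Bcl2a1a and Bcl2a1d were not analysed here, so that reads of these copies may stand under Bcl2a1b. The copies also resemble each other in front of the gene. Over the 250 bases before the start site, Bcl2a1b was identical to Bcl2a1a at 99.5% of 206 aligned bases, to Bcl2a1d at 99.0% of 200 and to Bcl2a1c at 95.7% of 184. The stretches below (RefSeq, GRCm38.p6) are shown because they hold the one match found in front of Bcl2a1b among 6 motifs searched and the base at which Bcl2a1c departs from it. Capitals mark the letters TGANTCA on either strand, or the bases aligned with them in Bcl2a1c. This is a loose form of the AP-1 motif in which N is any base, and N is A in these stretches.
Bcl2a1b, chr9:89199079-89199145, plus strand: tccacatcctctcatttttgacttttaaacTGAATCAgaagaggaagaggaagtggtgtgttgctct
Bcl2a1a, chr9:88956770-88956836, plus strand: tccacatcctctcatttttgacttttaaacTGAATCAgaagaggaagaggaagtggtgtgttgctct
Bcl2a1d, chr9:88731928-88731994, minus strand: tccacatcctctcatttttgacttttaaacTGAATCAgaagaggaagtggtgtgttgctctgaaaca
Bcl2a1c, chr9:114329885-114329941, plus strand: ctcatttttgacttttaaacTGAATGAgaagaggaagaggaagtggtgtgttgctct
The motif lies at bases -164 to -158 from the start site of Bcl2a1b, and 6.749% of 32851 promoters of the same length hold it. Bcl2a1c carries the difference C6G, counted from 1 at the first base in capitals, with the base of Bcl2a1b first, and so has no match. The letters of the NF-kB motif, found in 7.251% of all promoters, do not occur in this window of Bcl2a1b, which says nothing about the factor.

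Of the effector genes, Bax (ENSMUSG00000003873, chromosome 7, 45461697-45466898, minus strand) had no group that stood apart. In WT it was at 0.516 to 10.5 TPM in BM and 9.39 to 20.4 TPM in PT, and in MRP8-Bcl2 at 1.08 to 40.2 TPM in BM and 1.31 to 30.6 TPM in PT, so that the ranges overlapped in both genotypes. The highest value of each MRP8-Bcl2 group came from 1 library, library 3 in BM and library 9 in PT. Log2 fold changes were 1.90 in WT (95% interval -0.59 to 4.38, adjusted p = 0.443) and -0.09 in MRP8-Bcl2 (-2.57 to 2.40, adjusted p = 0.967). Without library 9 the MRP8-Bcl2 value was -1.15 (adjusted p = 0.512). Bax had few reads, at most 1.34 to 67.0 a library if they came from its longest transcript.

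Bak1 (ENSMUSG00000057789, chromosome 17, 27019810-27029009, minus strand) encodes Bak, the other pore former. Its values in WT were 23.2, 16.7 and 26.9 TPM (BM) and 12.04, 13.0 and 13.1 TPM (PT). The BM Bcl2 libraries held 15.6, 48.0 and 66.0 TPM, and those of PT Bcl2 held 1.39, 23.1 and 5.12 TPM. All PT libraries were below all BM libraries in WT, as for 7.97% of all genes, and the groups overlapped in MRP8-Bcl2. The fitted change was -0.74 in WT (95% interval -2.44 to 0.97, adjusted p = 0.703), which was not called. In MRP8-Bcl2 Bak1 fell by 2.43 on the log2 scale (SE 0.80, adjusted p = 0.0430), in a comparison where the median gene fell by 1.02. That call was lost without library 9 (-2.32, adjusted p = 0.0872), without library 2, 3, 4, 5, 7, 10 or 11 (0.0504 to 0.163) and under median centring (-0.84, adjusted p = 0.497) or after quantile normalization (-1.25, adjusted p = 0.270). It was kept in 3 of 8 other settings. Bak1 shares exon bases with Ggnbp1 on the opposite strand, and the counting is not stated to use strand, so reads of the overlap cannot be told apart.

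Bcl2l11 (ENSMUSG00000027381, chromosome 2, 128126038-128162547, plus strand) encodes Bim, a BH3-only protein that binds all the survival proteins of the family. It rose in both genotypes. In WT, BM libraries held 9.04, 12.5 and 1.47 TPM and PT libraries 135, 89.5 and 178 TPM. In MRP8-Bcl2 it was at 7.61, 10.2 and 18.1 TPM in BM and at 119, 87.4 and 75.3 TPM in PT. The lowest PT library was more than 4 times the highest BM library, and library 9, at 75.3 TPM, was the lowest of them. From 7.68 ± 5.66 TPM (SD, n = 3) in BM WT Bcl2l11 rose to 134 ± 44.1 in PT WT, a log2 fold change of 4.23 (SE 0.67, adjusted p = 0.00456). From 11.96 ± 5.47 in BM Bcl2 it rose to 94.0 ± 22.8 in PT Bcl2, a log2 fold change of 2.93 (SE 0.67, adjusted p = 0.00877), or 3.07 without library 9 (adjusted p = 0.0171). Both calls were kept in each of the 12 fits without 1 library and in all 8 other settings, among them the 3 other scalings between libraries.

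The start of the 250 bases in front of Bcl2l11 is shown because Bim is a known target of FOXO factors (RefSeq, GRCm38.p6). Capitals mark the FOXO letters GTAAACA, which 3.166% of all promoters hold on one strand or the other.
Bcl2l11, chr2:128125788-128125847, plus strand: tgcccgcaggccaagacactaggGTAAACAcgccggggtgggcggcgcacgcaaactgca
The match lies at bases -227 to -221 from the first of 2 start sites, and there was none in front of the other. Bbc3 also had a FOXO match in front of 1 of its 3 start sites, and Bcl2l1 and Bbc3 each had a match of the NF-kB motif in front of 1 of 3. Such a match is a match of letters only, and whether a factor binds there was not measured.

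Of the other BH3-only genes among the 10 members, Bid did not pass the test in any comparison, and Bbc3 did not pass the filter. Bid (ENSMUSG00000004446, chromosome 6, 120891930-120916853, minus strand), whose product is cut by caspase-8 and links death receptors to mitochondria, was at 12.7 to 26.8 TPM in BM WT and 16.4 to 65.1 in PT WT. In MRP8-Bcl2 it was at 19.5 to 55.1 TPM in BM and 2.88 to 80.3 in PT, the widest spread of its 4 groups, with library 9 in the middle at 23.9. The ranges overlapped in both genotypes. Log2 fold changes were 0.96 in WT (95% interval -1.02 to 2.93, adjusted p = 0.660) and -0.54 in MRP8-Bcl2 (-2.51 to 1.44, adjusted p = 0.701), or -0.70 without library 9. Bid overlaps Bcl2l13 on the opposite strand over 628 exon bases. Bbc3 (ENSMUSG00000002083, chromosome 7, 16308393-16318205, plus strand) encodes Puma, which p53 induces. It was listed at 0 in 7 of the 12 libraries, all 3 of BM Bcl2 among them, and at 5.59 TPM in library 6 (BM WT), 1.64 TPM in library 8 (PT Bcl2) and 0.314 to 0.859 TPM in the other 3. It reached 1 TPM in 2 libraries only and so did not pass the filter, and no more than 27.0 reads can stand behind any of these values.

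Bcl2l15 (ENSMUSG00000044165, chromosome 3, 103832601-103854618, plus strand) encodes Bfk, a little studied relative. Its values in WT were 2.23, 6.06 and 10.4 TPM (BM) and 62.3, 60.9 and 105 TPM (PT). BM Bcl2 held 2.84, 2.64 and 0.729 TPM, and PT Bcl2 held 54.9, 4.82 and 21.2 TPM in libraries 7, 8 and 9. Each PT library was above each BM library of its genotype, although library 8 was below 2 of the BM WT libraries. It rose by 3.55 on the log2 scale in WT (SE 0.82, adjusted p = 0.0320) and by 2.74 among transgenic libraries (SE 0.82, adjusted p = 0.0296). Without library 9 the latter was 2.64 and was no longer called (adjusted p = 0.0650). The WT call was lost without library 4, 5, 10, 11 or 12 (0.0690 to 0.116) and the MRP8-Bcl2 call also without library 2, 3 or 7 (0.0590 to 0.110). Of 8 other settings, the WT call was kept in 5 and the MRP8-Bcl2 call in 7. Over the mean of both genotypes the value was 3.14 (SE 0.58, adjusted p = 0.00210) and was called without any 1 library. Of its 31-base words 20.9% occur in other genes.

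Across the family, all PT libraries lay above all BM libraries for 4 of the 9 tested members in WT, as for 14.9% of all genes, and for 5 in MRP8-Bcl2, as for 5.18%. In both genotypes together this held for Mcl1, Bcl2a1b, Bcl2l11 and Bcl2l15, and for 3.28% of all genes. All PT libraries lay below for 1 of the 9 in each genotype, Bak1 in WT and Bcl2 in MRP8-Bcl2, which 7.97% and 32.6% of all genes did.

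**Figure D3:**
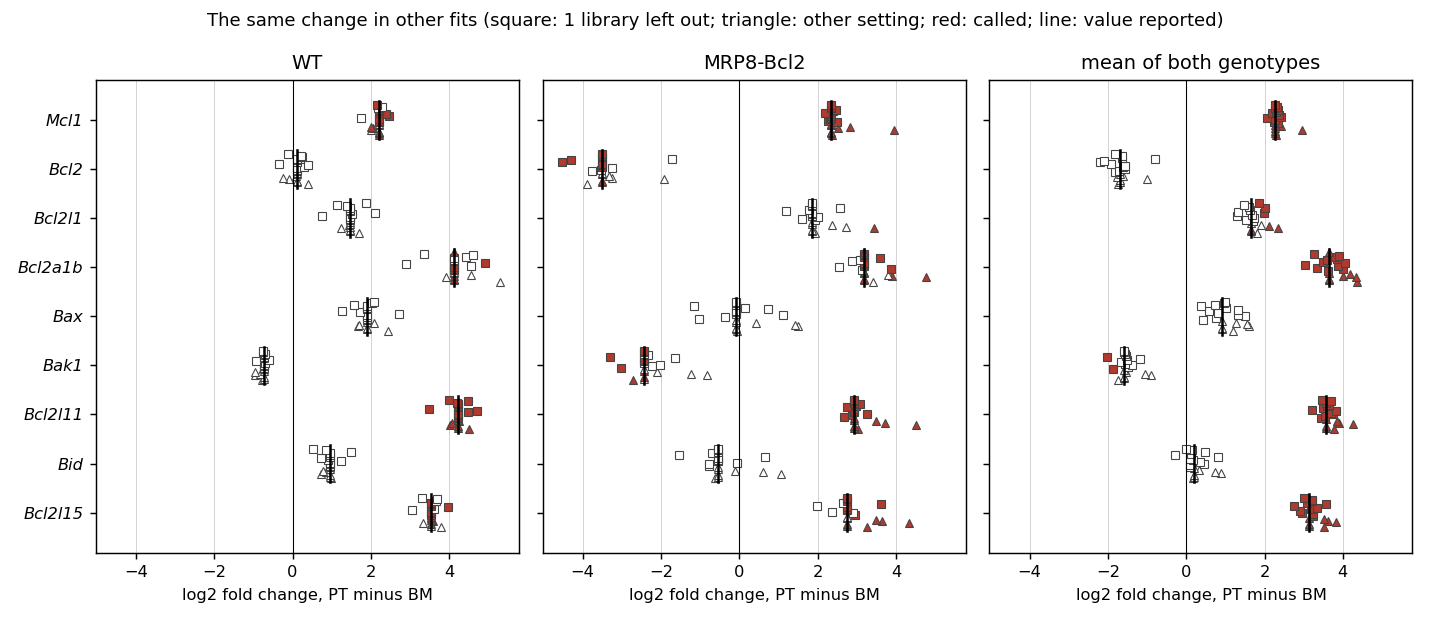
Log2 fold change, PT minus BM, of the 9 tested members (rows) in every other fit, in WT, MRP8-Bcl2 and the mean of both. Squares leave out 1 library, triangles use another setting, red symbols are called and the vertical line is the value reported. The symbols of Bcl2l11 are red throughout, and those of Bax and Bid lie on both sides of 0 in MRP8-Bcl2.

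The genotypes were compared at each site to ask how the transgene altered the cells, and the change from BM to PT was compared between the genotypes through an interaction term. No member was called in any of these comparisons, in which 0.0149% (higher) and 0.00743% (lower) of all genes differed in BM, 0 and 0.0297% in PT, and 0 and 0.0149% by the interaction. At an unadjusted p under 0.05 the numbers of genes were 991, 1709 and 2279. Bcl2 itself was 6.68 higher on the log2 scale in BM of MRP8-Bcl2 mice (SE 1.12), although the adjusted p was 0.0726, and 3.05 higher in PT (SE 1.12, adjusted p = 0.316). Without library 9 the differences were 6.68 in BM and 4.84 in PT. They are given as a description, with no test, because that library was singled out by its value of Bcl2 itself. Every labelled transgenic library but library 9 was above every WT library.

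The other 8 members showed no difference between the genotypes that passed the test. Their log2 fold changes, MRP8-Bcl2 minus WT, lay between -1.14 and 1.07 in BM (lowest adjusted p 0.734) and between -1.95 and 1.20 in PT (lowest adjusted p 0.350). The direction changed under another scaling for 3 of the 8 in BM and 6 of the 8 in PT. For the change from BM to PT, the difference between the genotypes was 0.14 for Mcl1 (95% interval -1.23 to 1.51), -0.94 for Bcl2a1b (-4.01 to 2.13), -1.30 for Bcl2l11 (-3.31 to 0.72) and -0.81 for Bcl2l15 (-3.28 to 1.67). These intervals include 0. Under another scaling the direction changed for 5 of the 8, Bcl2a1b, Bcl2l11 and Bcl2l15 among them, and the value of Mcl1 reached 1.95. For Bcl2 it was -3.63 (SE 1.59, unadjusted p = 0.0374, adjusted p = 0.278), or -1.83 without library 9, again as a description. The median over the 9 members was -1.30, beside -1.18 over all genes.

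The makeup of the family within a library does not depend on scaling between libraries. The summed level of the 10 genes is the base of the shares that follow. It was 257 to 530 TPM in BM WT and 1640 to 2259 TPM in PT WT. In MRP8-Bcl2 it was 519 to 753 TPM in BM and 1237 to 2002 TPM in PT. Mcl1 made up 67.3 to 88.3% of it in BM WT, 70.9 to 82.7% in PT WT and 75.1 to 83.1% in PT Bcl2, but 29.7 to 55.5% in BM Bcl2, where Bcl2 took 32.0 to 44.3%. In PT Bcl2 the share of Bcl2 was 4.13 and 3.82% in libraries 7 and 8 and 0.056% in library 9. Bcl2l11 held 0.290 to 3.53% of the sum in BM WT against 5.46 to 7.87% in PT WT, and 1.47 to 2.40% against 5.70 to 6.08% in the same order in MRP8-Bcl2, with no overlap in either genotype. These shares were not tested. Bak1 had the opposite order, with 3.15 to 9.03% in BM and 0.579 to 0.795% in PT of WT mice, and 3.01 to 8.79% and 0.0693 to 1.51% in MRP8-Bcl2 mice. A share also falls when the sum rises, as the sum did in PT. In the limma fit Bak1 itself was not called in WT (-0.74, adjusted p = 0.703).

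**Figure D4:**
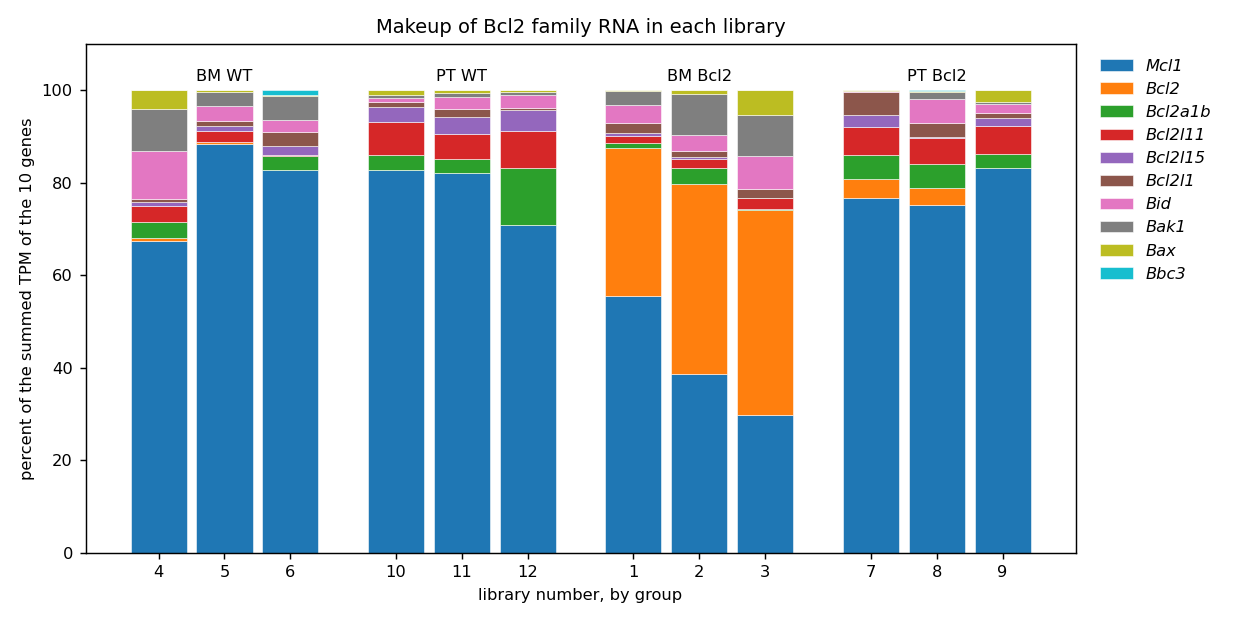
Share of each of the 10 genes in their summed TPM, in percent, with 1 stacked bar for each library. Mcl1 (blue) fills at least 67.3% of every bar outside BM Bcl2, where Bcl2 (orange) takes 32.0 to 44.3%, and the bar of library 9 has almost no orange.

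Set against each other within a library, Mcl1 exceeded Bcl2l11 by a factor of 19.1, 37.3 and 285 in BM WT and of 11.6, 15.1 and 9.005 in PT WT. The factors were 37.9, 20.7 and 12.4 in BM Bcl2 and 12.9, 13.2 and 13.7 in PT Bcl2. The PT libraries thus lay between 9.005 and 15.1, below all BM WT libraries, while library 3 of BM Bcl2, at 12.4, fell among them. Without Bcl2 in the sum, the share of Mcl1 in BM Bcl2 was 53.4 to 81.6%, below or within the 67.8 to 88.7% of BM WT.

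Other genes of the pathway were taken from 3 lists. Of 13 further Bcl2 family genes 8 were tested, and 1 was called higher and 0 lower in WT (1.59% and 1.22% of all genes), and 1 higher and 2 lower in MRP8-Bcl2 (2.31% and 19.1% of all genes). The median log2 fold change of these 8 was 0.10 and -1.93, beside 0.22 and -1.02 over all genes. Pmaip1, which encodes the BH3-only protein Noxa, a partner of Mcl-1, had 3.95, 2.76 and 2.34 TPM in the BM and 59.0, 42.2 and 56.3 TPM in the PT of WT mice. In MRP8-Bcl2 it was at 0.834, 10.5 and 4.47 TPM in BM and at 68.7, 31.7 and 48.6 TPM in PT, so that all PT libraries were above all BM libraries. Pmaip1 rose by 3.74 on the log2 scale in WT (SE 0.70, adjusted p = 0.0112), a call lost without library 10. Its rise in MRP8-Bcl2 was 3.31 (SE 0.70, adjusted p = 0.00621), or 3.29 without library 9 (adjusted p = 0.0162). Bad, another BH3-only gene, and Bcl2l2, which encodes the survival protein Bcl-w, were listed at 0 in all 3 PT Bcl2 libraries. Those libraries had 9735 to 12138 genes above 0, against 12907 to 13463 in BM Bcl2, so a value of 0 can also be a gene that was missed. Bad was at 13.0, 2.17 and 14.5 TPM and Bcl2l2 at 6.72, 5.04 and 21.7 TPM in BM Bcl2, and both were called lower (adjusted p = 0.0488 and 0.0111). Neither call held under median centring, and that of Bad was kept in 4 of the 12 fits without 1 library and lost without library 9 (adjusted p = 0.0885), while that of Bcl2l2 was kept without it (0.0268).

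The second list held 14 genes: those that act once the membrane has opened, inhibitors of these, and the outer membrane channels Vdac1, Vdac2 and Vdac3. In WT 1 of the 13 tested was called higher and 0 lower, in MRP8-Bcl2 1 higher and 3 lower, and over the mean of both genotypes 1 higher and 5 lower. Of all genes 19.1% were called lower in MRP8-Bcl2 and 14.1% over the mean. The median log2 fold change of the 13 was -0.08 in WT and -1.51 in MRP8-Bcl2, beside 0.22 and -1.02 over all genes. Birc3, which encodes the inhibitor of apoptosis cIAP2, was the one that rose. In WT, BM libraries held 79.0, 208 and 99.0 TPM and PT libraries 697, 619 and 884 TPM, a log2 fold change of 2.61 (SE 0.49, adjusted p = 0.0118, lost without library 4 or 10). In MRP8-Bcl2 it went from 114, 111 and 81.7 TPM to 396, 453 and 878 TPM, with library 9 the highest, a log2 fold change of 2.41 (SE 0.49, adjusted p = 0.00543), or 2.06 without library 9 (adjusted p = 0.0203). Vdac3, a channel of the outer mitochondrial membrane, and Apaf1, which forms the apoptosome, were called lower in MRP8-Bcl2, with changes of -3.57 (adjusted p = 0.00979) and -3.04 (adjusted p = 0.0264). Both of these were lost without library 3 (adjusted p = 0.0524 and 0.112) and under median centring, which gave -1.98 and -1.45, and that of Apaf1 also without library 2 or 8 (0.0596 and 0.102). Without library 9 they were -4.21 and -3.75, both called. The third was Aifm1, which encodes the mitochondrial flavoprotein AIF and is named here after its values were seen, at 9.002, 48.6 and 38.4 TPM in BM Bcl2 and 0, 3.27 and 3.26 TPM in PT Bcl2 (-3.36, adjusted p = 0.0304). That call was lost without library 2, 3 or 7 and in 6 of 8 other settings, among them the 3 other scalings. Over the mean of both genotypes, the calls of Aifm1 and Apaf1 were each kept in 4 of the 12 fits without 1 library, and that of Vdac3 in all 12. Vdac2, a related channel that binds Bak, was called only over the mean of both genotypes among these comparisons (-1.70, adjusted p = 0.0232, lost without library 3, 5 or 10 and under median centring), as was Htra2, a mitochondrial protease gene (-2.48, adjusted p = 0.0267, lost without library 2, 3, 4, 7, 10 or 12, without a filter and under the 3 other scalings).

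**Figure D5:**
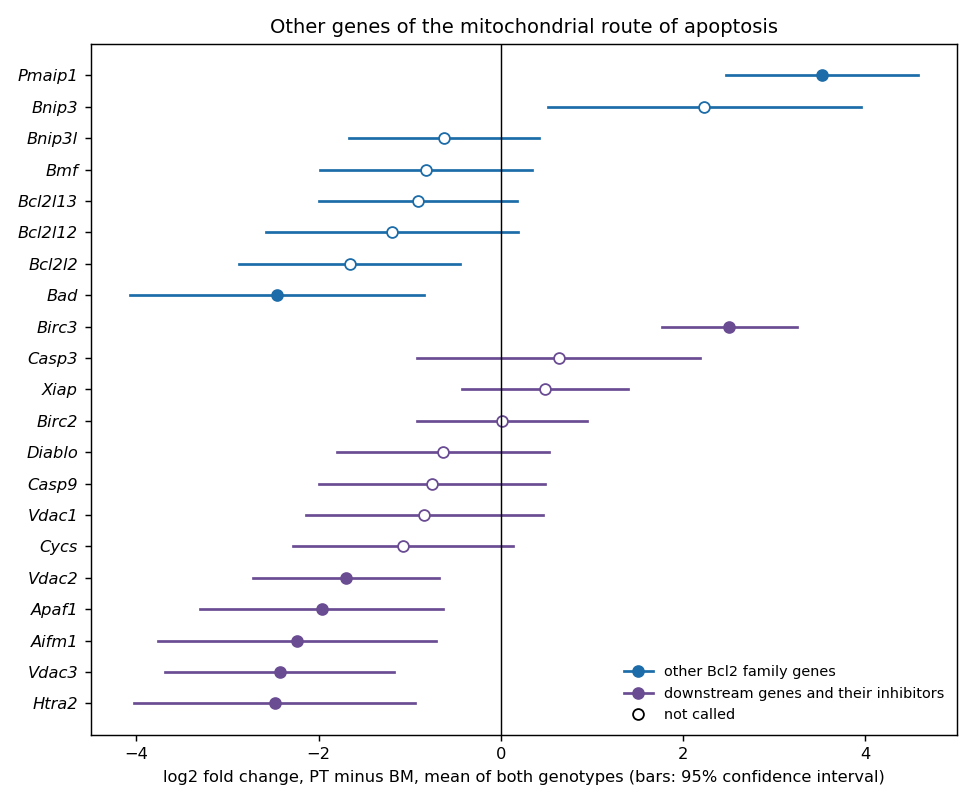
Log2 fold change of TPM + 1, PT minus BM, over the mean of both genotypes, with 95% confidence intervals. Blue marks the 8 tested further family genes, and purple the 13 tested genes of the second list, Vdac channels included. Filled points are called: Pmaip1 and Birc3 lie to the right of 0, and Bad and 5 genes of the second list lie to the left. The call of Bad was kept in 2 of the 12 fits without 1 library and in 2 of 7 other settings.

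The third list held 19 genes that act on the family, such as transcription factors, kinases and enzymes of protein turnover, and 17 were tested, with a median log2 fold change of 0.59 in WT and -0.76 in MRP8-Bcl2, beside 0.22 and -1.02 over all genes. None was called in WT, where 1.59% of all genes were called higher and 1.22% lower. In MRP8-Bcl2 1 was called lower, as were 19.1% of all genes. This was Trp53, which encodes p53, at 33.3, 51.8 and 104 TPM in BM Bcl2 and 33.1, 7.63 and 8.06 TPM in PT Bcl2 (-2.05, SE 0.68, adjusted p = 0.0438, and 0.116 without library 9). That call was kept in 5 of the 12 fits without 1 library, and under median centring the change was -0.46 (adjusted p = 0.674). Over the mean of both genotypes 1 of the 17 was called higher and 1 lower, beside 5.13% and 14.1% of all genes. The higher one was Pim1, a kinase that favours survival (1.58, SE 0.46, adjusted p = 0.0259, lost without library 1, 2 or 10). The lower one was again Trp53 (-1.55, kept in 5 of the 12 fits without 1 library). No gene of the 3 lists was called in the comparisons between genotypes.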

How the data were processed

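RNA of FACS-sorted neutrophils was amplified, sequenced as paired ends and analysed by the authors with AltAnalyze at default values. The authors deposited 1 table of log2(TPM + 1) values per gene and library. The version, genome build and annotation are not given in the sources used here. TPM was taken back from the deposited log2 values. Deposited averages, fold changes and p-values were not used, nor was a table of 1 library that no label ties to a sample (2 columns of per-sample values). The library columns name groups but no mouse or replicate number, so p-values measure the spread between libraries, and the BM and PT libraries of 1 mouse could not be paired.

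The 4 groups were fitted together in limma 3.58.1 (R 4.3.3) with a trend in eBayes and 8 residual degrees of freedom, over genes that reached 1 TPM in 3 or more libraries, and p-values were adjusted over all 13456. The fit was tested on simulated data for PT against BM in WT: of the genes changed by 1, 2 and 4 on the log2 scale it called 0 of 84, 1 of 54 and 43 of 62, and 4 unchanged genes, so a gene that was not called can still differ. The members and lists were chosen with earlier results of these data known. All 10 members are named, with the genes of the 3 further lists that were called, up to 5 a list by smallest adjusted p. A gene of these lists is not reported here and was left out of their counts. Coordinates are from GENCODE M21 by Ensembl ID, 31-base words from its transcripts, and promoter sequences (250 bases before the start, both strands searched for 6 motifs) from RefSeq. What 1 read is worth in TPM was read from the steps between low values in 5021 genes with 1 transcript. Of these low values, 69.7 to 78.0% in each library lay within 0.15 of a whole read. Evenly spread values would give 30%, but the step was fitted to the same values, so this is no strict chance level. Figures were drawn with matplotlib 3.10.9 in Python 3.11.15.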

Additional observations from a re-analysis of the deposited data

How the results depend on the processing

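The calls of Bcl2l11 in both genotypes, and those of Mcl1, Bcl2a1b, Bcl2l11 and Bcl2l15 over the mean of both genotypes, were kept in all fits without 1 library and in all other settings. The number of members called in PT against BM in WT, 4 as reported, was 2 with a pseudocount of 0.1, without a filter, without the trend or with only the groups compared, and 1 with median centring. In MRP8-Bcl2 it was 3, against 6, without a filter, with only the groups compared or with TPM rescaled without the 100 genes of highest mean. Leaving out 1 library gave 1 to 4 members in WT, 2 to 6 in MRP8-Bcl2, 4 to 5 over the mean, 0 to 1 between genotypes in BM or in PT (Bcl2 without library 9, which was singled out by that gene), and 0 by the interaction.

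Over all genes, calls in PT against BM came to 90 to 523 in WT, 1222 to 3085 in MRP8-Bcl2 and 1773 to 2704 over the mean when 1 library was left out. They were 179 (against 378) in WT with only the groups compared and 1457 (against 2878) in MRP8-Bcl2 after quantile normalization. The split over the mean was 690 higher and 1891 lower as reported, 1752 and 862 with median centring, 1233 and 1249 after quantile normalization and 770 and 1539 after rescaling, which in WT and MRP8-Bcl2 gave 162 and 180, and 419 and 1561. The interaction called 5 genes with a pseudocount of 0.1 and 1 without a filter, with centring, quantile normalization or rescaling (against 2; 1 to 5 without 1 library). Between genotypes in BM, 5 genes were called without a filter and 0 under a pseudocount of 0.1, a filter of 5 TPM, centring, quantile normalization, no trend or only the groups compared (against 3; 0 to 16 without 1 library). In PT the number was 22 with a pseudocount of 0.1, 9 with a filter of 5 TPM, 14 after rescaling, 1 after centring and 0 with only the groups compared (against 4; 1 to 17 without 1 library).

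No called value changed sign. Among values that were not called, Bax in MRP8-Bcl2 was 1.504 with median centring, 1.43 after quantile normalization, 0.44 after rescaling and -1.15 to 1.13 without 1 library. Bid in MRP8-Bcl2 was 1.05 with centring, 0.60 after quantile normalization and -1.55 to 0.64 without 1 library, and over the mean it was -0.30 to 0.80. Bcl2 in WT was -0.10 with centring, -0.25 after quantile normalization and -0.34 to 0.40 without 1 library. Bcl2l2 in WT was -0.18 with a pseudocount of 0.1, -0.19 with centring, -0.15 after rescaling and -0.82 to 0.45 without 1 library, and Vdac2 in MRP8-Bcl2 was 0.026 with centring. The cause was not tested. Mean shares without 1 library were 34.2 to 47.1% for Mcl1 and 36.5 to 42.7% for Bcl2 in BM Bcl2, and 1.94 to 3.98% for Bcl2 in PT Bcl2. Summing Bcl2a1b with Bcl2a1c changed no value, because Bcl2a1c was at 0. No paired analysis was possible because the columns carry no replicate number. Depth limits the values of Bax and Bbc3 and the BM values of Bcl2a1b.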

Other observations

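The 3 genes whose log2(TPM + 1) over the 12 libraries was most like that of Bcl2l11 were Kpna4, which encodes an importin, with a Pearson r of 0.97, Eya3, a transcriptional coactivator and phosphatase, with 0.96, and Mmachc, a gene of cobalamin metabolism, with 0.96. The 12 points are 6 BM and 6 PT libraries of different depth, and the value is a description. In WT, Kpna4 was at 10.03 to 28.3 TPM in BM and 77.2 to 140 TPM in PT, and in MRP8-Bcl2 at 23.0 to 32.2 TPM in BM and 66.7 to 197 TPM in PT. Mmachc was the most abundant of the 3, at 144 to 301 TPM in the BM libraries and 642 to 1437 in the PT libraries. Among the members themselves, Mcl1 had a Pearson r of 0.89 with Bcl2l15, 0.85 with Bcl2l11 and -0.69 with Bak1 over the same 12 libraries.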
